A study of Oryctolagus cuniculus with 16 samples.

Results

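KCNJ8 and ABCC9 encode the pore and the regulatory subunit of the ATP-sensitive potassium channel of blood vessels, and both were followed here in rabbit vein grafts with every probe that could be assigned to them. The array holds 43603 probes that are not controls. The transcript accession printed beside each probe placed 5 of them on KCNJ8 (NM_001082140) and 3 on ABCC9 (NM_001082044), 8 probes in all. All 8 passed the filter on dim probes, together with 35714 probes of the array. Every one of the 8 was well above background on all 16 arrays, and none was saturated on any of them.

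RNA of male rabbit vein tissue was hybridized to Agilent one-colour arrays in 3 groups. Grafts were taken out on day 1 (6 arrays) or on day 7 (6 arrays) after the operation, and veins of a sham surgery group (4 arrays) served as control. The strain, the age of the animals and the number of animals behind an array were not given in the sources used here. Arrays of a group were averaged where the variance of their difference was below 0.5 of that expected from the noise between spots. This limit was set after seeing the data. The grafts then counted as 2 samples on day 1 and 2 on day 7, and the controls as 4 samples. Other pairs of day 1 arrays had 0.642 to 0.754 of the expected variance, also less than spot noise, and were kept as different samples.

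ATP-sensitive potassium channels couple the energy state of a cell to its membrane potential. In vascular smooth muscle cells and pericytes the pore is Kir6.1, the product of KCNJ8, and the regulatory subunit is a sulfonylurea receptor, a splice form of the product of ABCC9. Opening of the channel hyperpolarizes the cell, lowers calcium entry through voltage-gated channels and relaxes the vessel. Adenosine, prostacyclin and other dilators that act through protein kinase A open it, and constrictors that act through protein kinase C close it. In the rabbit assembly mOryCun1.1 both genes lie on chromosome 9, with 1 long noncoding RNA gene annotated between them.

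Both subunits were lower in the grafts than in the sham surgery group, and the pore subunit was lower by more. After quantile normalization, KCNJ8 on day 7 was 34.9 times lower than in the controls by its representative probe, and up to 50.3 times lower by another. A representative probe is the one with the highest mean over the samples. ABCC9 was 5.38 times lower by its representative probe. The fall was present on day 1, when KCNJ8 was 14.8 times lower and ABCC9 3.98 times lower. These sizes varied with the scaling of the arrays, as given below. Between day 1 and day 7 the level of KCNJ8 fell further on the normalized scale, and the change of ABCC9 did not pass the test.

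**Figure D1:**
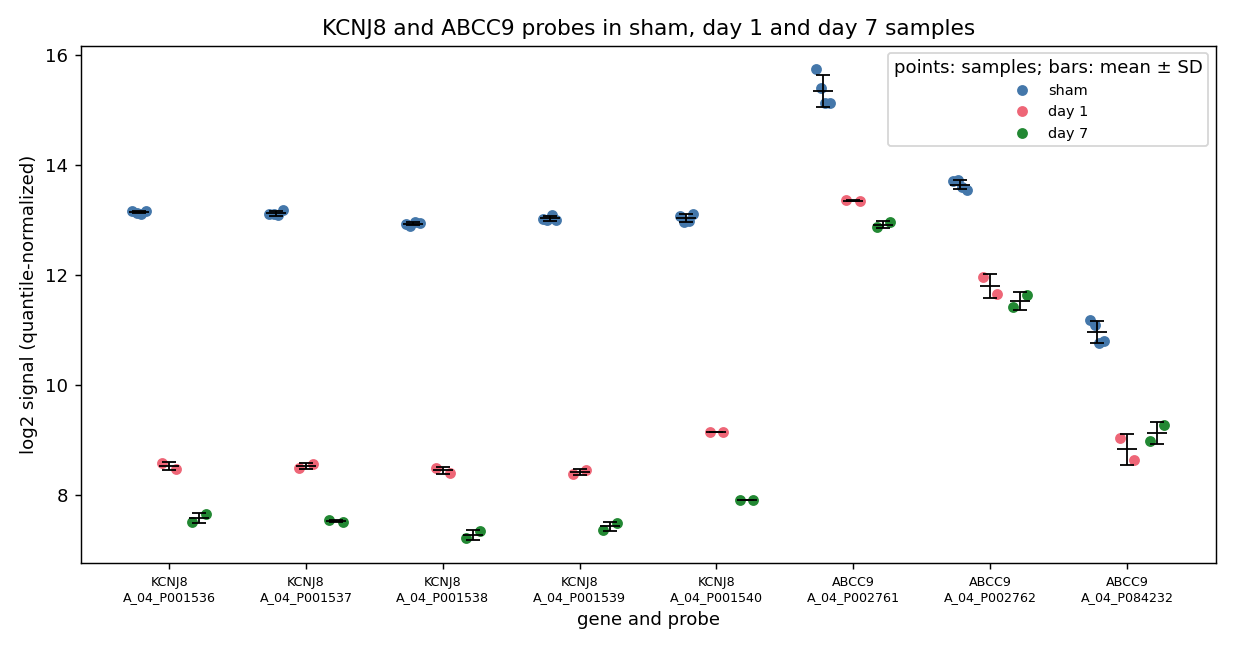
Quantile-normalized log2 signal (vertical axis) of the 5 KCNJ8 probes and 3 ABCC9 probes (horizontal axis) in 4 sham, 2 day 1 and 2 day 7 samples; points are samples, and bars give the mean and SD. For every probe the sham samples lie above all graft samples, and the KCNJ8 probes on day 7 lie between 7.21 and 7.91, below their day 1 samples.

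The values of the pore subunit were close to each other within a group. By the representative KCNJ8 probe, A_04_P001540, the sham samples had log2 signals of 13.07, 12.96, 12.98 and 13.10, the day 1 samples 9.14 and 9.14, and the day 7 samples 7.90 and 7.91. The 3 groups did not overlap, and the distance between sham and day 1 was much wider than the range within any group. The other 4 KCNJ8 probes gave sham means of 12.93 to 13.13. Their day 1 means were 8.41 to 8.53 and their day 7 means 7.27 to 7.58. Over the 5 probes, the SD between samples was 0.018 to 0.069 in the sham group, 0.0047 to 0.074 on day 1 and 0.0068 to 0.094 on day 7.

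Before normalization, in intensity units, the median of the representative probe was 7993 on the sham arrays, 341 on the day 1 arrays and 358 on the day 7 arrays. All KCNJ8 probes together spanned 5639 to 10516 units on the sham arrays. They spanned 202 to 369 units on the day 1 arrays, and for the day 7 arrays the span was 211 to 370. Unscaled, the signal of KCNJ8 on day 7 was therefore about as bright as on day 1.

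The regulatory subunit kept a higher share of its control signal. By the representative ABCC9 probe, A_04_P002761, the sham samples had log2 signals of 15.73, 15.39, 15.12 and 15.12, the day 1 samples 13.35 and 13.34, and the day 7 samples 12.87 and 12.95. Here too the groups did not overlap, but the sham samples spread more (SD 0.290, n = 4) than those of KCNJ8. Probe A_04_P002762 had means of 13.64 ± 0.0859 in the sham group (SD, n = 4), 11.80 ± 0.218 on day 1 (SD, n = 2) and 11.52 ± 0.159 on day 7 (SD, n = 2). Probe A_04_P084232, the dimmest, had means of 10.95 ± 0.202, 8.82 ± 0.281 and 9.12 ± 0.205, and its day 1 and day 7 samples overlapped.

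The first comparison, day 7 against sham, sets the grafts at the time of wall thickening against the control veins. All 8 probes were called lower, where 15.4% of all probes tested were. A call required, in limma, a Benjamini-Hochberg adjusted p (over all probes) under 0.05 together with a change of 1 log2 unit or more. The representative KCNJ8 probe fell by 5.12 on the log2 scale (SE 0.0862, limma adjusted p = 1.76e-07), and the 95% confidence interval of the fold was 30.3 to 40.2. The other 4 probes had log2 fold changes of -5.65 to -5.56. Of all probes tested, 0.493% to 0.748% had a log2 fold change at or below those of the KCNJ8 probes. The ABCC9 probes had log2 fold changes of -2.43 (SE 0.183, limma adjusted p = 3.47e-05), -2.12 and -1.83, and 5.27% to 8.21% of all probes lay at or below them. The samples of the groups did not overlap for any of the 8 probes, which held for 71.4% of all probes tested.

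The second comparison, day 1 against sham, covers the first day in the arterial circulation. Again all 8 probes were called lower, against 24.6% of all probes tested. The representative KCNJ8 probe had a log2 fold change of -3.89 (SE 0.0862, limma adjusted p = 1.28e-07), a fold of 12.9 to 17.1 by the 95% confidence interval. The other 4 KCNJ8 probes lay between -4.61 and -4.48, so that the representative probe gave the smallest change of the 5. The ABCC9 probes had log2 fold changes of -1.99 (SE 0.183, limma adjusted p = 5.10e-05), -1.84 and -2.13. For all 8 probes the samples of the groups did not overlap, as for 82% of all probes tested.

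**Figure D2:**
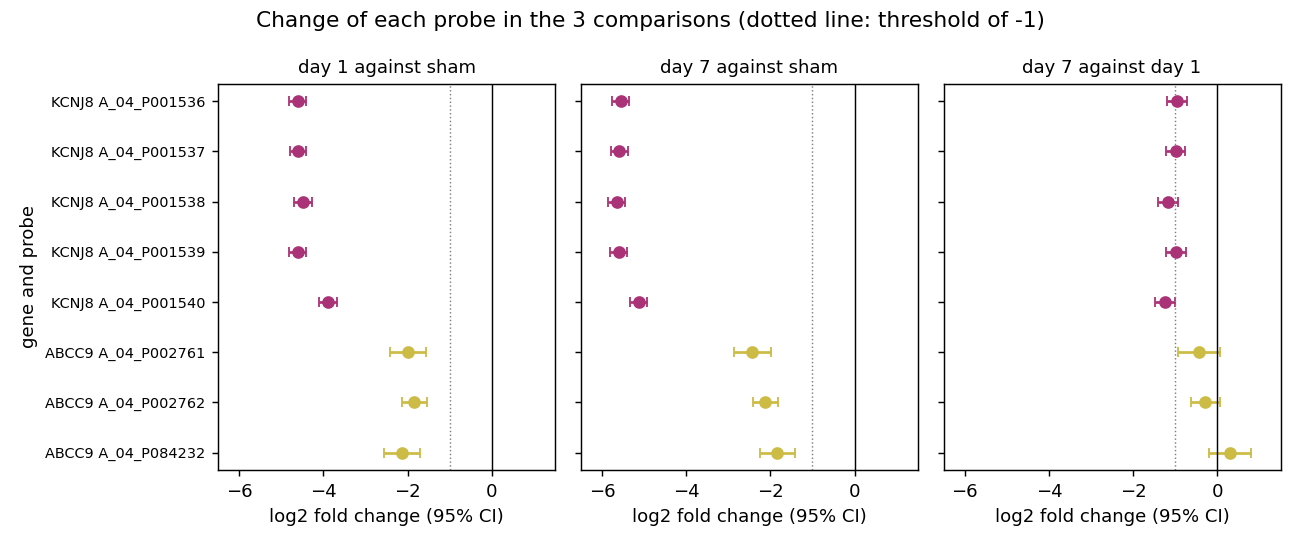
Log2 fold change (horizontal axis) with 95% confidence interval for each KCNJ8 and ABCC9 probe (vertical axis) in 3 comparisons; the dotted line marks the threshold of -1. Against sham the 5 KCNJ8 probes lie between -5.65 and -3.89 and the 3 ABCC9 probes between -2.43 and -1.83, while between day 7 and day 1 the ABCC9 intervals include 0.

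The third comparison, day 7 against day 1, follows the grafts over time. Of the 8 probes, 2 were called lower, against 18.9% of all probes tested, and both belong to KCNJ8. Their log2 fold changes were -1.23 (A_04_P001540, SE 0.0995, limma adjusted p = 5.21e-05) and -1.17 (A_04_P001538, limma adjusted p = 6.62e-05). The remaining 3 KCNJ8 probes had log2 fold changes of -0.99, -0.99 and -0.95, with limma adjusted p of 0.000117 to 0.000182, and missed only the threshold on the fold. The samples did not overlap for 7 of the 8 probes, against 89.4% of all probes tested. The 3 ABCC9 probes had -0.44 (95% confidence interval -0.94 to 0.06), -0.28 (-0.63 to 0.06) and 0.30 (-0.19 to 0.79). These intervals hold no fall as large as that of the representative KCNJ8 probe.

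The size of the fall of KCNJ8 between the grafts varied with the scaling of the arrays, and the day 7 arrays were brighter as a whole. The part of array brightness in it was not tested. Taken over the arrays of a group, the median of the 75th percentile signal was 942 units for day 1, 2652 for day 7 and 1594 for sham. Over the 5 probes, the log2 fold change of day 7 against day 1 was -1.53 to -1.27 with scaling to that percentile, -0.96 to -0.61 with normexp background correction and -1.28 to -0.99 in the values normalized by the authors. It was negative for every KCNJ8 probe under each of these scalings. With normexp, no KCNJ8 probe reached the threshold on the fold. The log2 ratio of the unscaled medians was -0.07 to 0.20 for KCNJ8 and 0.92 to 1.65 for ABCC9. Sizes against sham moved as well. With normexp, KCNJ8 probes had -4.81 to -4.29 on day 7 and -4.08 to -3.34 on day 1. With the 75th percentile they had -5.80 to -5.18 and -4.39 to -3.75, and ABCC9 probes -1.98 to -1.90 and -2.06 to -1.38. Unscaled medians gave -5.13 to -4.48 and -5.17 to -4.55 for KCNJ8, in the same order. For ABCC9 they gave -1.21 to -1.01 and -2.66 to -2.03.

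Day 1 and day 7 arrays lay side by side in 3 scans, which allows the same comparison within each. The representative KCNJ8 probe had log2 fold changes of -1.24, -1.22 and -1.24 in the scans, and the representative ABCC9 probe -0.45, -0.41 and -0.45. By the averaging used here, every scan read the same samples. The values are therefore repeat readings and not 3 independent comparisons. The sham arrays lay in a scan of their own. In both comparisons with sham, scan and surgery cannot be told apart. The graft scans all had the same layout, and no slide position ever carried arrays of both days. The comparison within a scan therefore cannot separate slide position from day.

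Averaging further, to 1 day 1, 1 day 7 and 2 sham samples, kept all KCNJ8 calls against sham (limma adjusted p of 0.0359 for the representative probe on day 7 and 0.0191 on day 1). The representative ABCC9 probe then had limma adjusted p of 0.0484 on day 7 and 0.0327 on day 1. Probe A_04_P084232 of ABCC9 lost its call on day 7 (log2 fold change -1.83, limma adjusted p = 0.0615), and KCNJ8 lost its call between day 7 and day 1 (limma adjusted p = 0.102), where limma called no probe of the array and 12225 probes had an unadjusted p below 0.05.

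Whether both subunits moved by the same amount was asked of the difference between their log2 values within a sample. This difference, KCNJ8 minus ABCC9 by their representative probes, was -2.66, -2.43, -2.13 and -2.01 in the sham samples. It was -4.22 and -4.20 in the day 1 samples and -4.97 and -5.04 in the day 7 samples. Its level depends on the probes, and only its shift between groups is compared here. The shift was -2.70 on day 7 and -1.90 on day 1 against sham, each with an exact two-sided permutation p of 0.0667, the smallest that 15 permutations allow. Between day 7 and day 1 it was -0.80, with an exact permutation p of 0.333, again the smallest possible. No p below 0.05 can be reached with these sample numbers. The samples of the groups did not overlap in any of the 3 comparisons, but most single probes of the array did not overlap either. Their share was 71.4% for day 7 and 82% for day 1 against sham, and 89.4% between the days. The share for such differences between genes was not computed.

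Across the 8 samples, probes of one gene ran together. Pearson's r between KCNJ8 probes was 0.998 to 1.000 over 10 pairs, and between ABCC9 probes 0.964 to 0.989 over 3 pairs. Between a KCNJ8 and an ABCC9 probe it was 0.941 to 0.995 over 15 pairs. These values describe 8 samples in 3 groups that share arrays, scaling and group differences.

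The genes with a pattern most like each subunit were ranked by the root mean square distance between centred log2 values over the 8 samples, among 1973 named genes. Nearest to KCNJ8 were GRB14 (distance 0.372, r = 0.992), FHL5 (0.373, r = 0.989), TF (0.393, r = 0.986), RYR3 (0.430, r = 0.982) and PPP2R2B (0.431, r = 0.995), which was well above background on 1 of 6 day 7 arrays. Nearest to ABCC9 were WNT11 (0.183, r = 0.993; well above background on 4 of 6 day 7 arrays), TGFB2 (0.218, r = 0.994), HOXA4 (0.238, r = 0.988), CHTOP (0.291, r = 0.983) and the voltage-gated potassium channel KCNB2 (0.291, r = 0.968). The subunits were not each other's nearest genes. ABCC9 ranked 95 from KCNJ8, and KCNJ8 ranked 800 from ABCC9, at a distance of 1.20 with r = 0.986. The distance counts the size of a change as well as its course. This r was above that of RYR3 with KCNJ8, and above those of CHTOP and KCNB2 with ABCC9. An r above 0.95 was found for 108 genes with KCNJ8 and 94 with ABCC9.

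The other pore subunit of ATP-sensitive channels, KCNJ11, is best known from pancreatic beta cells and striated muscle. Its log2 means were 6.11 ± 0.155 in the sham group (SD, n = 4), 7.33 ± 0.0518 on day 1 (SD, n = 2) and 6.30 ± 0.204 on day 7 (SD, n = 2). It rose on day 1 (log2 fold change 1.22, limma adjusted p = 0.000139) and fell from day 1 to day 7 (-1.03, limma adjusted p = 0.00105). Against sham on day 7 it had a log2 fold change of 0.19 (limma adjusted p = 0.269). With normexp the change on day 1 was 0.53 and not called. Its usual partner ABCC8 was not analysed here. ABCC3, an organic anion exporter and the other named member of the ABCC family, rose by 1.46 on day 1 and by 1.88 on day 7.

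Among the other potassium channel genes, 25 of 30 named genes were tested by their brightest probe. On day 7 against sham, 7 were called lower, 2 higher and 16 not, with a median log2 fold change of -0.20, where the median of all probes was 0.04. Of all named genes tested, 16.7% were called lower and 18.5% higher. On day 1, 8 were lower and 6 higher, with a median of 0.21 against 0.12 for all probes, beside 25.7% and 25.3% of all named genes. The count of higher genes on day 1 moved with the scaling, to 12 with the 75th percentile and 1 with normexp, while 7 or 8 were lower under each scaling.

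The potassium channels that fell include voltage-gated and calcium-activated channels known from smooth muscle. KCNA5, a delayed rectifier pore, went from 9.30 in the sham group to 6.18 on day 1 and 4.35 on day 7 (log2 fold change on day 7 -4.95, limma adjusted p = 2.84e-05). KCNAB1, a subunit that accompanies such pores, had log2 fold changes of -5.42 on day 1 and -4.93 on day 7. KCNMB1, the smooth muscle subunit of the large-conductance calcium-activated channel, had a log2 fold change of -2.78 on day 7, and its pore KCNMA1 one of -1.26. With 1 day 1, 1 day 7 and 2 sham samples, KCNMB1, KCNMA1 and KCNH2 were not called on either day. KCNMA1, KCNMB1 and the channels KCNH2 (-3.17), KCNS3 (-3.25) and KCNB2 (-2.54) were named after their values were seen, apart from KCNB2 as a near neighbour of ABCC9. The largest rise on day 1 was that of KCNG4, a modifier of other pores, at 2.45. KCNA1 was not well above background on any sham array and was at least 2.71 times higher on day 7 (limma adjusted p = 0.00185). Such bounds set the mean of the brighter group against the lowest signal well above background on the arrays of the dimmer group.

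**Figure D3:**
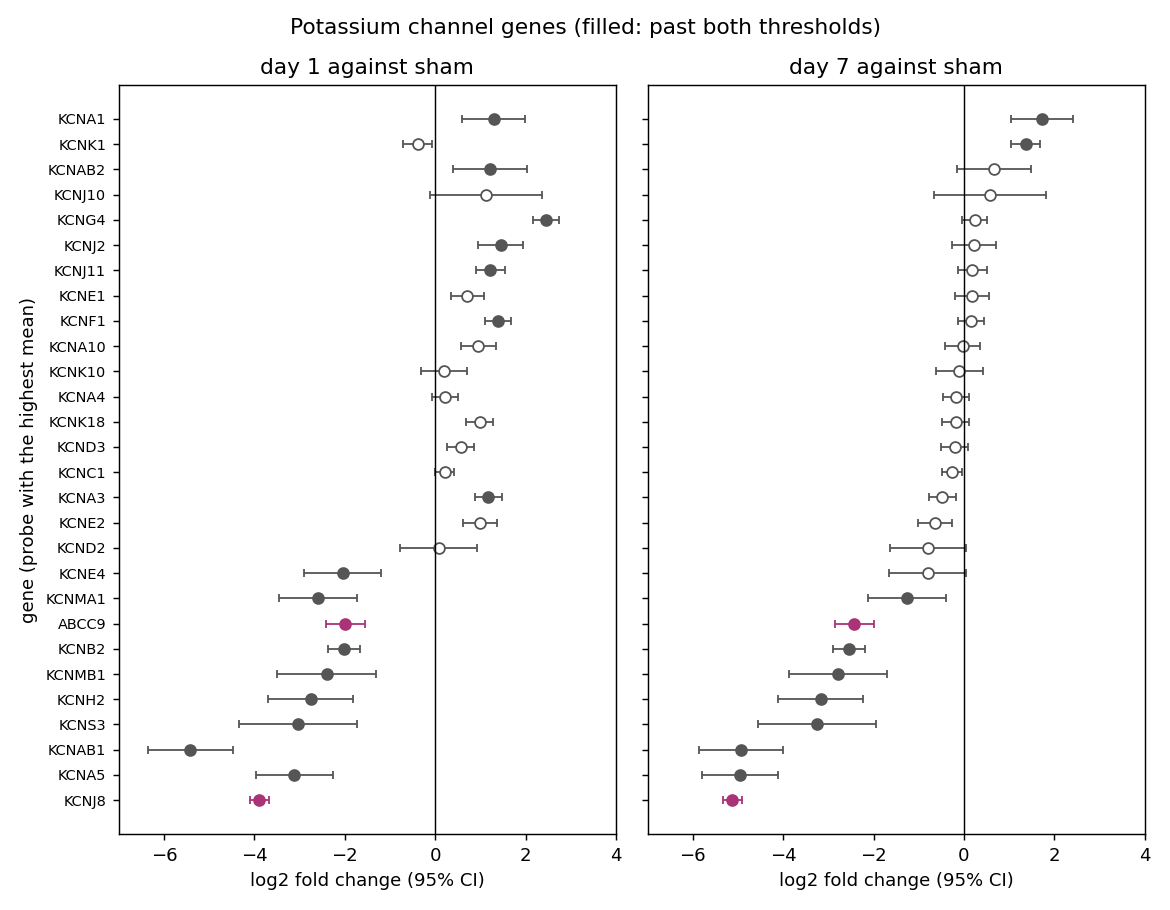
Log2 fold change (horizontal axis) with 95% confidence interval of KCNJ8, ABCC9, KCNJ11 and 25 other potassium channel genes (vertical axis, by the change on day 7), on day 1 and day 7 against sham; filled points passed both thresholds. KCNJ8 lies lowest on day 7 at -5.12, beside KCNA5 at -4.95 and KCNAB1 at -4.93, and most channel genes that passed on day 1 alone were higher.

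Calcium channels carry the current that opening of ATP-sensitive channels limits. Of 9 subunits tested, 5 were called lower on day 7 and none higher, and on day 1 4 were lower and 2 higher. Of all named genes tested, 16.7% were lower and 18.5% higher on day 7, and 25.7% and 25.3% on day 1. CACNA1A had the largest fall on day 7, with a log2 fold change of -3.06 (limma adjusted p = 1.71e-06). CACNA1C, the pore of the L-type channel of smooth muscle, was not well above background on any day 1 array and was at least 7.13 times lower there than in the sham group (limma adjusted p = 1.16e-06). CACNA1B, the pore of a neuronal channel, rose by 1.77 on day 1. With normexp, 3 subunits were called lower on day 1 and 2 on day 7, and none was higher.

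Genes of dilator signalling upstream of the channel went both ways. Of 10 tested, 5 were called lower and 3 higher on day 7, and 4 lower and 2 higher on day 1. Among all named genes, 16.7% were lower and 18.5% higher on day 7, and 25.7% and 25.3% on day 1. PRKG1, the cGMP-dependent protein kinase, had log2 fold changes of -3.37 on day 1 and -3.29 on day 7. PRKAR2B, a regulatory subunit of protein kinase A, was named after its values were seen. It had the next largest fall on day 7 (-3.07, limma adjusted p = 0.0173), with a wide spread between the sham samples (SD 1.49, n = 4). PTGER4, a prostaglandin E receptor that raises cAMP, rose by 2.72 on day 1 and by 2.27 on day 7. NPR3, the natriuretic peptide clearance receptor, rose by 2.78 on day 7 after a log2 fold change of -1.06 on day 1.

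Of 14 constrictor signalling genes tested, 6 were called lower and 1 higher on day 7, and 8 lower and 3 higher on day 1. Among all named genes, 16.7% were lower and 18.5% higher on day 7, and 25.7% and 25.3% on day 1. AGTR1, the angiotensin II receptor, had log2 fold changes of -5.53 on day 1 and -4.07 on day 7. NPY1R, a neuropeptide Y receptor, had a log2 fold change of -4.52 on day 7. PRKCB, a protein kinase C isoform that leukocytes also express, rose by 4.84 on day 1 and by 2.37 on day 7. With normexp, 1 dilator and 6 constrictor genes were called lower on day 1, and 4 of each on day 7.

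Smooth muscle cells and pericytes are among the known sites of the channel in a vessel wall, and most of their named markers were lower on day 1. In a wall sample, fewer cells of a type and less RNA per cell cannot be told apart. Of the 14 smooth muscle markers listed, 6 were named, and 4 were called lower on day 1 and 5 on day 7. Among all named genes, 25.7% were called lower on day 1 and 16.7% on day 7. MYH11, smooth muscle myosin, had log2 fold changes of -5.33 on day 1 and -6.49 on day 7. PLN, phospholamban, had -5.46 and -4.86. ACTA2, smooth muscle actin, named after its values were seen, fell by 5.14 on day 1 and rose by 4.65 from day 1 to day 7, when it had a log2 fold change of -0.49 against sham (limma adjusted p = 0.0814). The summed level of the 6 markers was 18.97 to 19.61 in the sham samples, 17.47 to 17.48 on day 1 and 18.03 to 18.20 on day 7, on the log2 scale. Signals were summed before the log2 was taken, so the brightest markers dominate this sum and those given below. The part of the 6 markers in the values of KCNJ8 and ABCC9 was not tested.

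The pericyte marker RGS5 followed a course like that of ACTA2. It fell by 5.04 on day 1 and rose by 4.07 from day 1 to day 7, with a log2 fold change of -0.98 against sham (limma adjusted p = 0.0783). Its day 1 samples were at 3.68 and 2.97, near the lowest signal well above background on those arrays (3.62 on average). The size of the fall and of the rise is therefore uncertain. ANPEP, the other named mural marker of 6 listed, was well above background on no day 1 array, and it was at least 2.82 times higher on day 7 than on day 1 (limma adjusted p = 0.0304). Its sham mean of 3.28 was dimmer than the lowest signal well above background on the day 1 arrays. Against sham, ANPEP was called on neither day. Its log2 fold change on day 7 was 1.83, opposite in sign to that of RGS5. The summed level of both was 7.74 to 9.02 in the sham samples, 3.34 to 4.25 on day 1 and 7.59 to 7.74 on day 7.

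**Figure D4:**
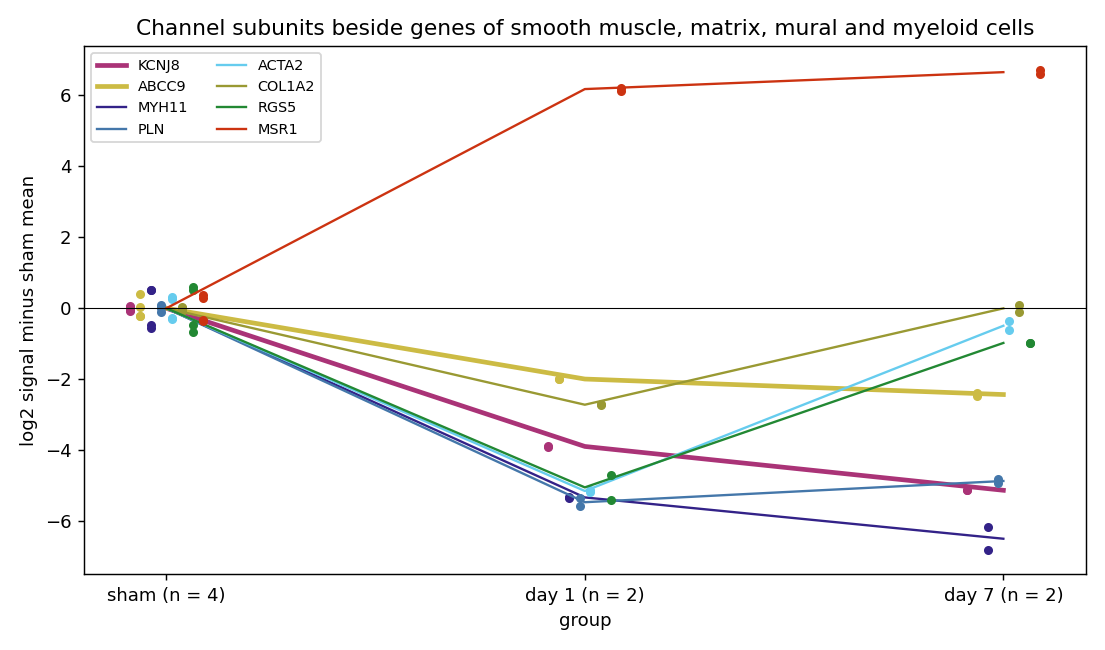
Log2 signal minus the sham mean (vertical axis) in the sham, day 1 and day 7 samples (horizontal axis) for KCNJ8, ABCC9, 3 smooth muscle genes (MYH11, PLN, ACTA2), COL1A2, RGS5 and MSR1; points are samples and lines join group means. KCNJ8, ABCC9, MYH11 and PLN stay below sham on day 7, while ACTA2, COL1A2 and RGS5 lie at -0.49, -0.00 and -0.98.

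Fibroblast markers were lower on day 1 as well, and 2 of 3 named were near the control on day 7. COL1A2, a chain of type I collagen, had log2 fold changes of -2.72 on day 1 and -0.00 on day 7. LUM, lumican, had -3.50 and -0.17, and DCN, decorin, -2.87 and -1.89. The summed level of the 3 markers was 19.94 to 20.02 in the sham samples, 17.09 to 17.09 on day 1 and 19.63 to 19.67 on day 7.

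Leukocyte markers were higher in the grafts. All 4 leukocyte markers named of 14 listed were called higher on day 7, and 3 on day 1. Among all named genes, 18.5% were called higher on day 7 and 25.3% on day 1. MSR1, a macrophage scavenger receptor, rose by 6.17 on day 1 and by 6.65 on day 7. CD14, the monocyte co-receptor for endotoxin, rose by 5.56 and by 4.67, and CYBB, an oxidase subunit of phagocytes, by 2.67 and by 5.97. CD3E of T cells rose by 1.81 on day 7 and had a log2 fold change of 0.52 on day 1. The summed level of the 4 was 10.94 to 12 in the sham samples, 17.08 to 17.11 on day 1 and 16.79 to 16.91 on day 7. Their part in the fall of the channel was not tested.

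Striated muscle also expresses ABCC9. Of its 7 named markers, 6 were called higher on day 1, where 25.3% of all named genes were. On day 7, 2 were higher and 1 was lower, beside 18.5% and 16.7% of all named genes. ATP2A1, the calcium pump of fast muscle, rose by 7.26 on day 1 and by 1.49 on day 7. CKM, muscle creatine kinase, rose by 1.03 on day 1, was not well above background on any day 7 array and was at least 2.03 times lower there than in the sham group (limma adjusted p = 1.94e-05). The summed level was 9.42 to 9.63 in the sham samples, 13.28 to 13.33 on day 1 and 9.41 to 9.58 on day 7. ABCC9 was lower on both days, and the part of striated muscle in its day 1 level was not tested.

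Endothelial and fat markers complete the account of the wall. KDR, a receptor for vascular endothelial growth factor, was not well above background on any graft array and was at least 2.05 times lower on day 1 (limma adjusted p = 0.000431) and at least 1.99 times lower on day 7 (limma adjusted p = 0.000251). THBD, thrombomodulin, fell by 1.26 on day 7 and had a log2 fold change of -0.14 on day 1. SELE, E-selectin, had 0.52 and -0.05 and was not called. The summed level of these 3 was 13.04 to 13.13 in the sham samples, 12.93 to 12.95 on day 1 and 11.78 to 11.86 on day 7. This sum is nearly that of THBD alone, with means of 13.07, 12.93 and 11.81, and hides the course of KDR. Of the fat markers, ADIPOQ, adiponectin, was not well above background on any day 1 array and was at least 53.3 times lower there (limma adjusted p = 1.25e-05), with a log2 fold change of -4.47 on day 7, while LEP, leptin, was not called (0.44 and -0.52). The summed level of both was 8.75 to 10.17, 5.84 to 5.85 and 5.80 to 5.86 in the same order.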

How the data were processed

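Cy3-labelled RNA of rabbit veins was read on 16 Agilent arrays. The authors deposited scanner files with the background-subtracted signal intensity of 45220 spots, and log2 values of 33670 probes, quantile-normalized and filtered in GeneSpring. The labels name Feature Extraction 9.1 and the file headers 11.0.1.1. The build of the array annotation is oryCun2, and no coordinates are given. Per array, 32794 to 36268 probes were well above background, and the number of arrays limits the precision.

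Control spots were left out, and spots called non-uniform or outlying were set to missing (1.46% on at least 1 array). The log2 intensity was quantile-normalized, spots of a probe were averaged, and a probe was kept if all arrays of 1 or more groups were well above background. limma 3.58.1 (lmFit, then eBayes, in R 4.3.3 with the data.table package at version 1.17.8) fitted 1 model with the 3 groups. All its p-values are two-sided. For a gene with several probes, the brightest by its mean over samples stood for it. Names came from RefSeq accessions (3368 probes, from RefSeq's gene list for mOryCun1.1) or Entrez identifiers of the study's supplement (2816 probes), for 2127 genes. Probes under other accessions were not looked up. KCNJ8, ABCC9 and the 13 lists were chosen with earlier results of these data known. Named genes are KCNJ8, ABCC9, KCNJ11, the called gene with the largest rise and fall of each list in each comparison with sham, every gene of a list with 5 or fewer named genes, and the 5 nearest genes.

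Arrays at the same position in the 3 graft scans differed by an SD of 0.0622 to 0.114 log2 units, 0.0882 to 0.215 of the variance expected from spot noise. They were averaged (arrays 1, 3 and 5, and arrays 2, 4 and 6). The limit of 0.5 on this ratio was set after seeing the data. Arrays at different positions had ratios of 0.642 to 1.02, and sham arrays 1 and 2, and 3 and 4, ratios of 1.35 and 0.581, so that they may share an extract. Other sham pairs had ratios of 5.78 to 14.3. Nothing states that samples came from separate animals, and p-values then measure only the spread between these samples, which may be technical. Replicate numbers did not pair the groups: deviations from group means correlated by -0.0157 to 0.0476 between same-numbered arrays.

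The authors' log2 values correlated by more than 0.999 with the values computed here. Their median was 8.49 to 8.51 on every array. Their scale and direction needed no change. The mean spot signal was not used here, and normexp correction (offset 50) took the median spot signal and the local background. Alternatives were 16 separate arrays, sham arrays in pairs, 75th percentile scaling, normexp, the authors' values, other filters, other summaries of a gene's probes, a model of the compared groups only, scan and replicate blocks, each sample left out, and, chosen after seeing the data, 1 day 1, 1 day 7 and 2 sham samples. On simulated data with 35187 probes, a change of 5 log2 units was recovered for 98 of 100 probes in day 7 against sham, 99 in day 1 against sham and 94 in day 7 against day 1. For a change of 2 log2 units this was 80, 76 and 73. In the simulation only these probes changed, noise was drawn independently for each probe, and no normalization was applied. Far more probes were called in the data, so these rates need not hold there. Figures were drawn with matplotlib.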

Additional observations from a re-analysis of the deposited data

Results flagged for a closer look

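On the normalized scale, the change of KCNJ8 against sham differed between the days. Of the 5 KCNJ8 probes, 2 were called between day 7 and day 1, and the one given here had the largest fall. By probe A_04_P001540, the difference between the day 7 and the day 1 change against sham was -1.23 on the log2 scale, and the contrast of day 7 against day 1 in limma tests this difference itself (adjusted p = 5.21e-05). Both day 7 samples, at 7.90 and 7.91, lay below both day 1 samples at 9.14. The unscaled signals of both days were about equal. Neither the part of array brightness nor that of slide position in this difference was tested.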

How the results depend on the processing

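Both subunits were lower than sham on both days by every probe under each alternative run, and no result changed direction. The representative KCNJ8 probe lost its call between day 7 and day 1 with normexp (-0.96) and with 1 day 1, 1 day 7 and 2 sham samples (-1.23, adjusted p = 0.102, against 8.10e-15 to 0.000952 under the other settings). With 16 separate arrays, the shift of KCNJ8 against ABCC9 kept its values of -1.90, -2.70 and -0.80 and reached exact permutation p of 0.00476, 0.00476 and 0.00216, where repeat arrays count as samples. Each of these is again the smallest p possible, lower only because more arrays were counted. The cause of the lost KCNJ8 calls was not tested.

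Counts of probes called were 17790 on day 1 against sham, 11758 on day 7 against sham and 14278 between the days. They were 10432, 6919 and 7323 with normexp. With 1 row per gene they were 9817, 6023 and 8012 by the brightest probe and 9816, 6038 and 7953 by the mean, since fewer features are tested. With 1, 1 and 2 samples, limma called 3286 on day 7 against sham and 0 between the days, where 12225 had an unadjusted p below 0.05. Genes called in the lists numbered 46 on day 7 against sham and 42 between the days. They were 22 between the days with normexp, and 22 and 0 with 1, 1 and 2 samples. Without each sample in turn, the representative KCNJ8 probe gave -5.15 to -5.10, -3.91 to -3.86 and -1.24 to -1.23, and ABCC9 -2.50 to -2.30, -2.07 to -1.86 and -0.48 to -0.39, in the order day 7 and day 1, each against sham, then day 7 against day 1.

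With the replicate number as a block, on 16 separate arrays, KCNJ8 had -5.14, -3.90 and -1.23 and ABCC9 -2.43, -2.0 and -0.44 in the same order, and 48, 62 and 45 genes of the lists were called. The samples share only a number. The 75th percentile moved the median of all probes on day 1 against sham from 0.12 to 0.47, and no called gene of the lists turned its sign under any scaling. With normexp, CACNA1B, CACNA1C, KCNA1, KCNJ11, KDR, CKM, WNT11 and NPR3 lost their calls against sham on day 1, and CACNA1C, KCNA1, KDR, CKM, WNT11, ATP2A1, CD3E and KCNMA1 on day 7. With the 75th percentile, NPR3 lost its call on day 1. Between the days, KCNJ11 lost its call with normexp, and ANPEP with normexp and with the 75th percentile. With 1, 1 and 2 samples, ABCC3, KCNA1, KCNJ11, NPR3 and CKM lost theirs on day 1, and ABCC3, KCNA1, CACNA1C, ADIPOQ, ATP2A1, CD3E, PRKAR2B, THBD, TGFB2, WNT11 and CHTOP on day 7.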
